A study of Mus musculus with 6 samples.

Results

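Transcripts of 10 genes of the desmosome, the spot-like junction that ties epithelial cells to each other and to their keratin filaments, were followed in mouse oviducts that carried both copies of Wt1 or only 1 intact copy. The genes were the plakophilins Pkp1, Pkp2, Pkp3 and Pkp4, the plakin Dsp, the cadherins Dsg2, Dsc2 and Dsc3, plakoglobin (Jup) and Perp. Each was taken by name, through every probe set whose platform annotation names that gene alone, which gave 24 of 45037 probe sets and 10 of 18193 genes. Samples were 3 of genotype Wt1 +/+ (wild type) and 3 of genotype Wt1 ko/+ (heterozygous), all oviduct from females of the MF1 strain, mated with wild-type males and taken at embryonic day 2.5. The sources used here give neither the age of the females nor the part of Wt1 that the ko allele lacks, and the whole organ was used, with no sorting of cells. RNA of each sample was labelled with biotin and read on 1 array. Values below are log2 intensities after quantile normalization unless a sentence says otherwise, where a difference of 1 is a doubling of intensity, and the log2 change is always heterozygous minus wild type. Values of a genotype are listed in the order of its replicates 1, 2 and 3.

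In a desmosome, the cadherins (desmogleins and desmocollins) span the membrane and bind those of the next cell. Their tails hold the armadillo proteins plakoglobin and plakophilin, which in turn bind desmoplakin, and desmoplakin holds the keratin filaments. Simple epithelia such as the lining of the oviduct build desmosomes mainly from Dsg2, Dsc2, Dsp, Jup and Pkp2, whereas Pkp1 and Dsc3 are best known from stratified epithelia such as skin. Wt1 is a zinc finger transcription factor that binds DNA.

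Among the members, Pkp1 stood farthest from 0, with a log2 change of -1.68, which is 3.20-fold lower in heterozygous oviducts. Jup and 2 of the 6 probe sets of Dsg2 likewise had all heterozygous arrays below all wild-type arrays, by much less, at -0.28 for Jup and -0.24 and -0.40 for Dsg2; of all probe sets, 5.87% were lower without overlap. None of the 24 probe sets passed the threshold, an adjusted p under 0.05 in limma over all 45037 probe sets, where 0.00666% of probe sets passed. At an unadjusted p under 0.05 there were 2 of the 24, against 5.18% of all probe sets. The other 23 probe sets had log2 changes from -0.86 to 0.97, and their adjusted p in limma lay between 0.933 and 0.989. Over all 24 the median log2 change was -0.04, with 15 lower and 9 higher, and over all probe sets it was -0.01, with 51.7% lower.

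**Figure D1:**
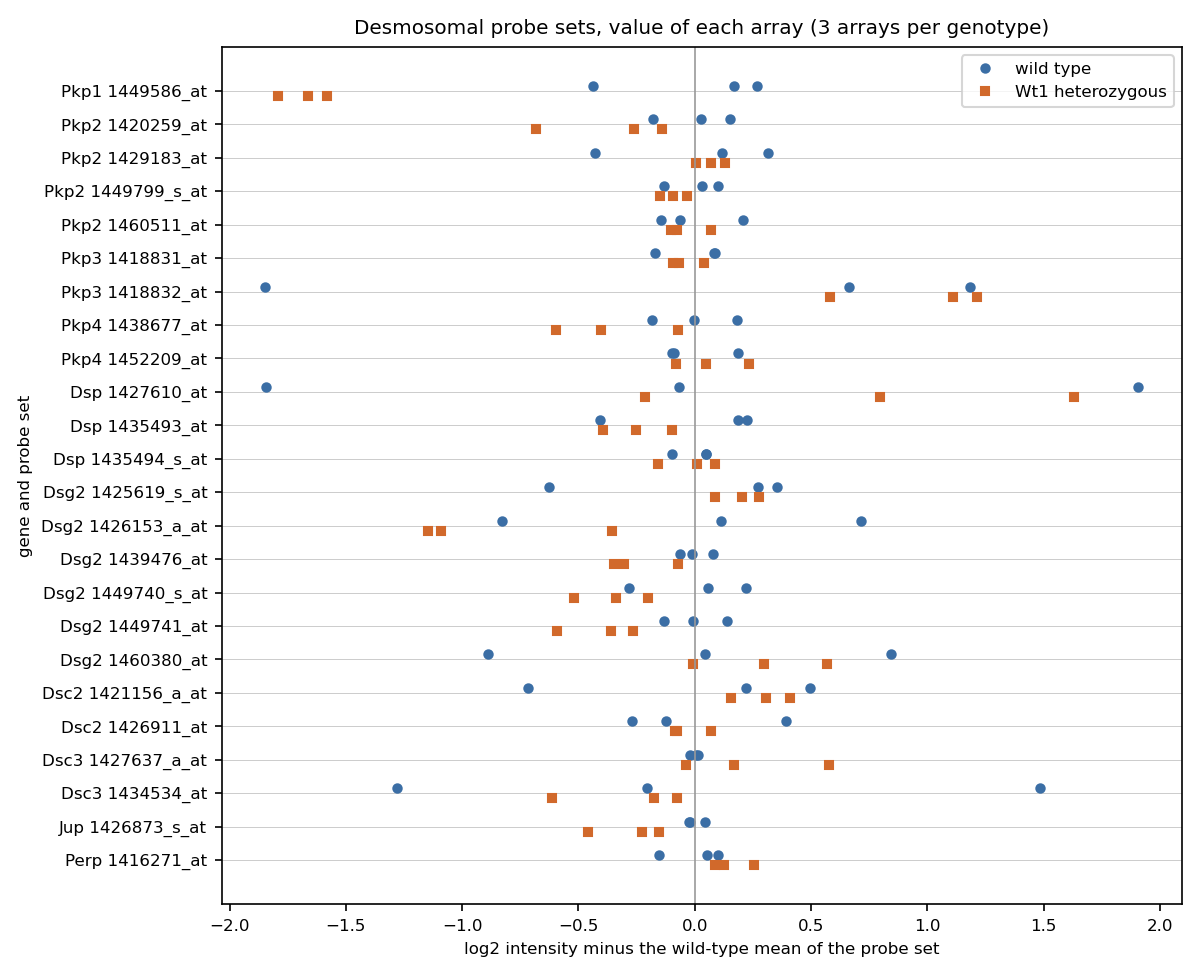
Each row is 1 probe set of a desmosomal gene; the horizontal axis gives the log2 intensity of each array minus the wild-type mean of that probe set, with circles for the 3 wild-type and squares for the 3 heterozygous arrays. The heterozygous squares of Pkp1 all lie well to the left of its wild-type circles, while Dsp 1427610_at, Pkp3 1418832_at and Dsc3 1434534_at spread widely within the wild type.

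As deposited, the mean after removing 2% of values at each end was the same in every array, so scaling had made overall intensities alike. The medians of the arrays lay between 151.6 and 167.8, and the arrays correlated at 0.931 to 0.963 across probe sets. They differed in how evenly transcripts were covered. The ratio of the 3' to the 5' control probe set of Actb, which rises when RNA is shortened or copied incompletely, was 5.90 in wild-type replicate 3 and 1.67 to 2.49 in the other arrays. For the targeted gene, the Wt1 probe set read 12.17, 12.06 and 11.67 in the wild type and 11.12, 11.27 and 11.79 in heterozygous oviducts, a log2 change of -0.57. The array labelled heterozygous replicate 3 therefore exceeded wild-type replicate 3, and its Wt1 level alone would not place it in its group (limma adjusted p = 0.933 over probe sets). Epithelial and oviductal identity was plain in all arrays: Krt8, a keratin of simple epithelia, read 12.71 to 13.31, and Ovgp1, the oviductal glycoprotein, 14.26 to 14.36. Nothing in the labels ties each sample to an animal of its own, so a p-value reflects only how far these samples scatter, which may be technical, and the number of arrays limits every estimate.

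Genomic sequence upstream of the transcription start was taken for 3 of the 10 members (Dsp, Jup and Pkp4), from RefSeq on build GRCm38.p6. The search left out a chromosome, so a member missing here may still have such sequence. Pkp1 was not among the 3 genes. The sequences shown are those of Jup, another armadillo protein whose groups did not overlap, and Dsp, the central linker of the plaque. The altered gene also encodes a factor that binds GC-rich DNA. Each is the 250 bases before the start, 5' to 3' on the strand of the gene, at chr11:100397791-100398040 on the minus strand for Jup and chr13:38151044-38151293 on the plus strand for Dsp. Capitals mark GGGCGG, the core of a GC box, on either strand (CCGCCC is the same box on the other strand).
Jup: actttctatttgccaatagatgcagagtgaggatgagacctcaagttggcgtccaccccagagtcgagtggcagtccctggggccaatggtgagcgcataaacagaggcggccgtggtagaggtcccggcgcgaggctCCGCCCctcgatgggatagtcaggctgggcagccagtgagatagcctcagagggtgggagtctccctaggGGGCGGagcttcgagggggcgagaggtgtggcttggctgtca
Dsp: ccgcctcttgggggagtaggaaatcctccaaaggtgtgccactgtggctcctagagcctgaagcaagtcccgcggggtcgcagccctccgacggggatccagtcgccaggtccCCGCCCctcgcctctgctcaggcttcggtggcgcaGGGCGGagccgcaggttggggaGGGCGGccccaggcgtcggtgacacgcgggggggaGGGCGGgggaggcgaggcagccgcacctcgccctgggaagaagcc
The GC box core occurred 2 times before Jup, 4 times before Dsp and 5 times before the first of the starts of Pkp4, where neighbouring matches overlap. It occurred 0 times before the other start of Pkp4. It was present in 32.7% of 32851 upstream windows of the same length. Both GCGTGGGAG and GCGGGGGCG, letters known to be bound by Wt1 and by the related Egr1, were searched on both strands. Neither occurred in the windows of these 3 genes, and they were present in 0.405% and 2.57% of all windows. That says only that these letters are not in these bases.

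Plakophilins bind the cadherin tails and draw desmoplakin to the membrane. Pkp1 was measured by 1 probe set (1449586_at), which read 9.40, 9.9997 and 10.10 in the wild type and 8.17, 8.25 and 8.04 in heterozygous oviducts. The lowest wild-type array was thus more than 1 log2 unit above the highest heterozygous array. In the intensities as the authors deposited them, the Pkp1 values were 680, 1026 and 1082 in the wild type and 279, 313 and 273 in heterozygous oviducts. Group means of Pkp1 were 9.83 ± 0.38 (SD, n = 3) and 8.15 ± 0.11 (SD, n = 3), and the spread was wider in the wild type. The log2 change of -1.68 had a standard error of 0.23 and a 95% interval from -2.24 to -1.12. Pkp1 did not pass in limma over all probe sets (adjusted p = 0.323) or over all genes (adjusted p = 0.226), and by p it stood at rank 48 of the 45037 probe sets. The exact two-sided permutation test gave p = 0.1 for Pkp1, the smallest that 3 arrays against 3 allow. Pkp1 had been picked for its small p in an earlier analysis of these arrays, so these values describe it and are no independent test.

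Across the arrays of lower and of higher 3' to 5' ratio the Pkp1 difference had the same sign. Within the 3 arrays of lower ratio (wild-type replicate 1 and heterozygous replicates 2 and 3) the Pkp1 log2 change was -1.25, and within the 3 of higher ratio it was -1.88. Leaving out wild-type replicate 3, the array of the highest ratio, gave -1.54 for Pkp1, and leaving out heterozygous replicate 3, whose Wt1 level was high, gave -1.63. With the ratio as a covariate in limma the Pkp1 log2 change was -1.50 (adjusted p = 0.483). Over all alternatives Pkp1 ranged from -1.90 to -1.50, with adjusted p from 0.0844 to 0.996 over probe sets. In whole organs, fewer cells of a type and less RNA per cell cannot be told apart.

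**Figure D2:**
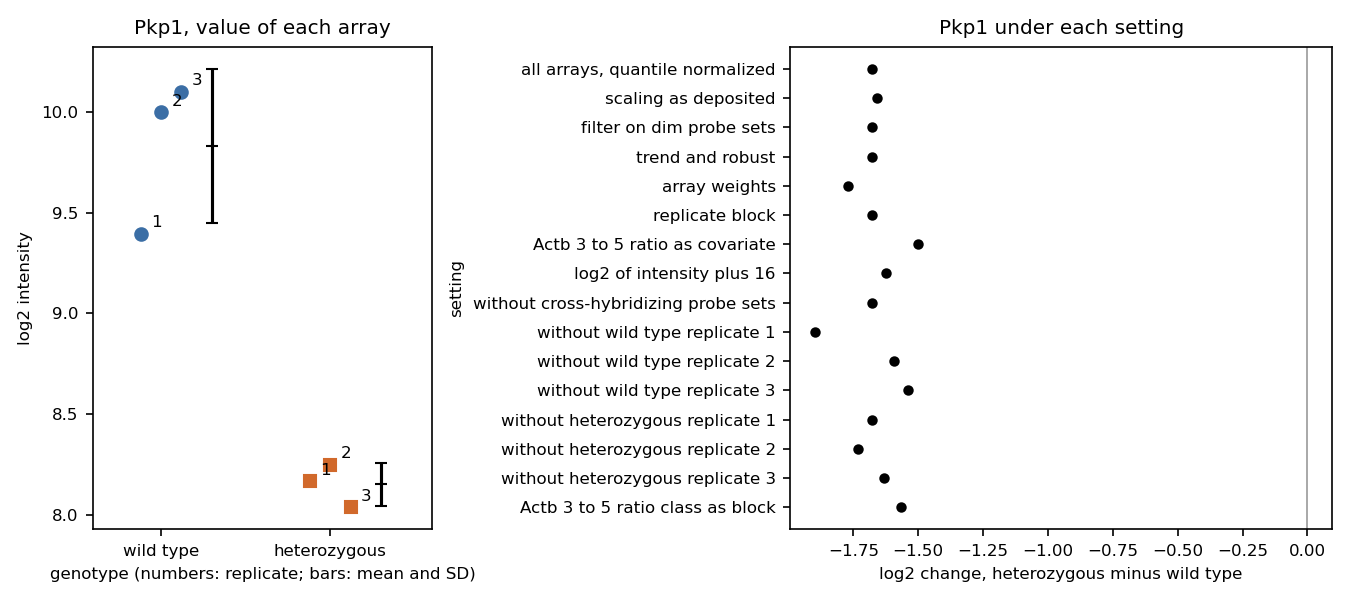
On the left the vertical axis gives the log2 intensity of Pkp1 in each array, numbered by replicate, with the mean and SD of 3 arrays beside each genotype; on the right the horizontal axis gives the Pkp1 log2 change, heterozygous minus wild type, under each processing setting. The heterozygous arrays lie between 8.04 and 8.25 and the wild-type arrays between 9.40 and 10.10, and all settings give a change between -1.90 and -1.50.

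Pkp2, the plakophilin of simple epithelia and heart muscle, had 4 probe sets and no separation of the genotypes in any of them. Its probe set 1449799_s_at read 12.16, 11.93 and 12.09 in the wild type and 11.91, 11.97 and 12.03 in heterozygous oviducts. All 6 arrays lay within 0.249 log2 units there, and the log2 change of Pkp2 was -0.09 with a 95% interval from -0.43 to 0.25. The other Pkp2 probe sets gave -0.36, 0.07 and -0.04, and their 95% intervals lay between -0.86 and 0.62. A change of Pkp2 as large as that of Pkp1 lies outside the 95% intervals of all 4 probe sets.

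Pkp3, found in most epithelial desmosomes, gave different pictures at its 2 probe sets. At 1418831_at it read 8.79, 9.05 and 9.05 in the wild type and 9.002, 8.89 and 8.87 in heterozygous oviducts. Here the genotypes were intermixed, and the log2 change of Pkp3 was -0.04 with a 95% interval from -0.40 to 0.32. The dim probe set 1418832_at read 6.75, 6.23 and 3.72 in the wild type and 6.68, 6.15 and 6.78 in heterozygous oviducts. A single low array, wild-type replicate 3, set its log2 change of 0.97, which was 0.05 without that array.

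Pkp4, a relative that is also found at adherens junctions, read 11.43, 11.15 and 11.15 in the wild type and 11.29, 11.16 and 11.48 in heterozygous oviducts at 1452209_at. The genotypes overlapped throughout, with a log2 change of 0.07 and a 95% interval from -0.34 to 0.47. Its probe set 1438677_at gave -0.36 (95% interval from -0.84 to 0.13), with heterozygous replicate 1, at 8.33, inside the wild-type range of 8.22 to 8.58.

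**Figure D3:**
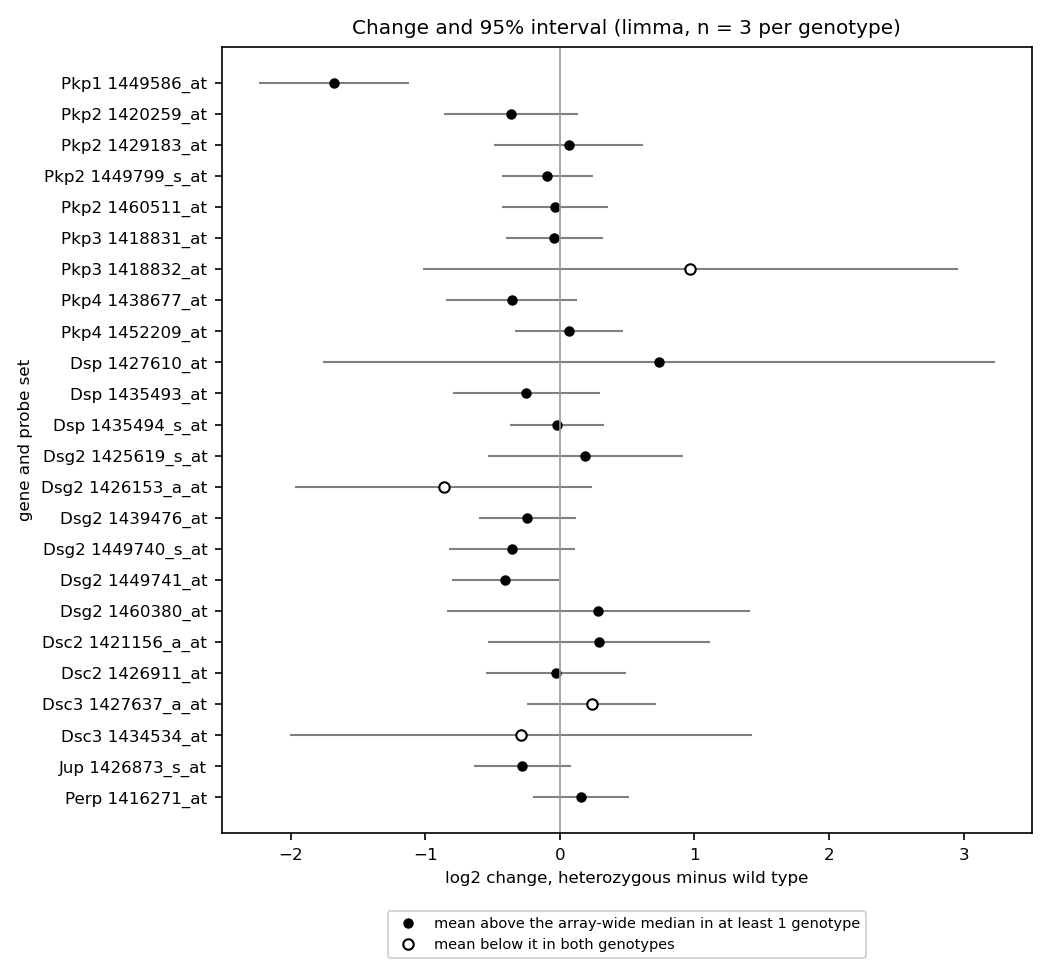
Points give the log2 change, heterozygous minus wild type, of each desmosomal probe set on the horizontal axis, and bars its 95% interval from limma with 3 arrays per genotype; open points mark probe sets whose means lie below the array-wide median (7.31) in both genotypes. Of the 24 intervals, those of Pkp1 and of Dsg2 1449741_at exclude 0, and 17 lie wholly between -1 and 1.

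Desmoplakin, encoded by Dsp, anchors keratin filaments to the plaque. Its probe set 1435494_s_at read 12.98, 12.98 and 12.83 in the wild type and 12.94, 12.77 and 13.02 in heterozygous oviducts. Values were nearly level across arrays, and the log2 change of Dsp was -0.02 with a 95% interval from -0.37 to 0.33. At 1435493_at, also bright, Dsp stood at -0.25 (95% interval from -0.80 to 0.30), with wild-type replicate 2 the lowest of all arrays.

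The remaining Dsp probe set, 1427610_at, varied more than any other member. It read 9.36, 7.39 and 5.61 in the wild type and 7.24, 8.25 and 9.09 in heterozygous oviducts. Its highest and lowest arrays, 3.75 log2 units apart, were thus both wild type. The 3' to 5' ratio of Actb was 1.74, 2.40 and 5.90 in the same wild-type arrays and 2.49, 1.67 and 1.71 in the same heterozygous arrays, so that the 3 arrays of higher ratio were the 3 of lowest Dsp 1427610_at. The log2 change of 0.74 (95% interval from -1.76 to 3.24) turned to -0.18 without wild-type replicate 3 and to -0.47 with the ratio as a covariate.

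Several probe sets shared this order. Dsc2 1421156_a_at read 7.74, 7.47 and 6.53 in the wild type and 7.41, 7.66 and 7.55 in heterozygous oviducts, and Dsg2 1460380_at read 8.02, 7.22 and 6.29 and then 7.17, 7.47 and 7.75. In both, as in Dsp 1427610_at, the 3 arrays of higher ratio were the 3 lowest. Wild-type replicate 3 was the lowest array in 9 of the 24 desmosomal probe sets and the highest in 8, against 21.5% and 26.3% of all probe sets. In 4 genes (Pkp2, Pkp4, Dsp and Dsg2) 1 probe set was lowest and another highest in that same array. Pkp1, Jup, Dsg2 1449740_s_at and Dsg2 1449741_at were among those highest there. Their Spearman correlations with the ratio over 6 arrays were 0.543, 0.771, 0.943 and 0.829. Dsg2 1439476_at, highest in wild-type replicate 2, was at 0.543. For Dsp 1427610_at, Dsc2 1421156_a_at and Dsg2 1460380_at they were -0.771, -0.829 and -0.771. The sources used here do not say where each probe set lies along its transcript, and the part of RNA quality in these differences was not tested.

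**Figure D4:**
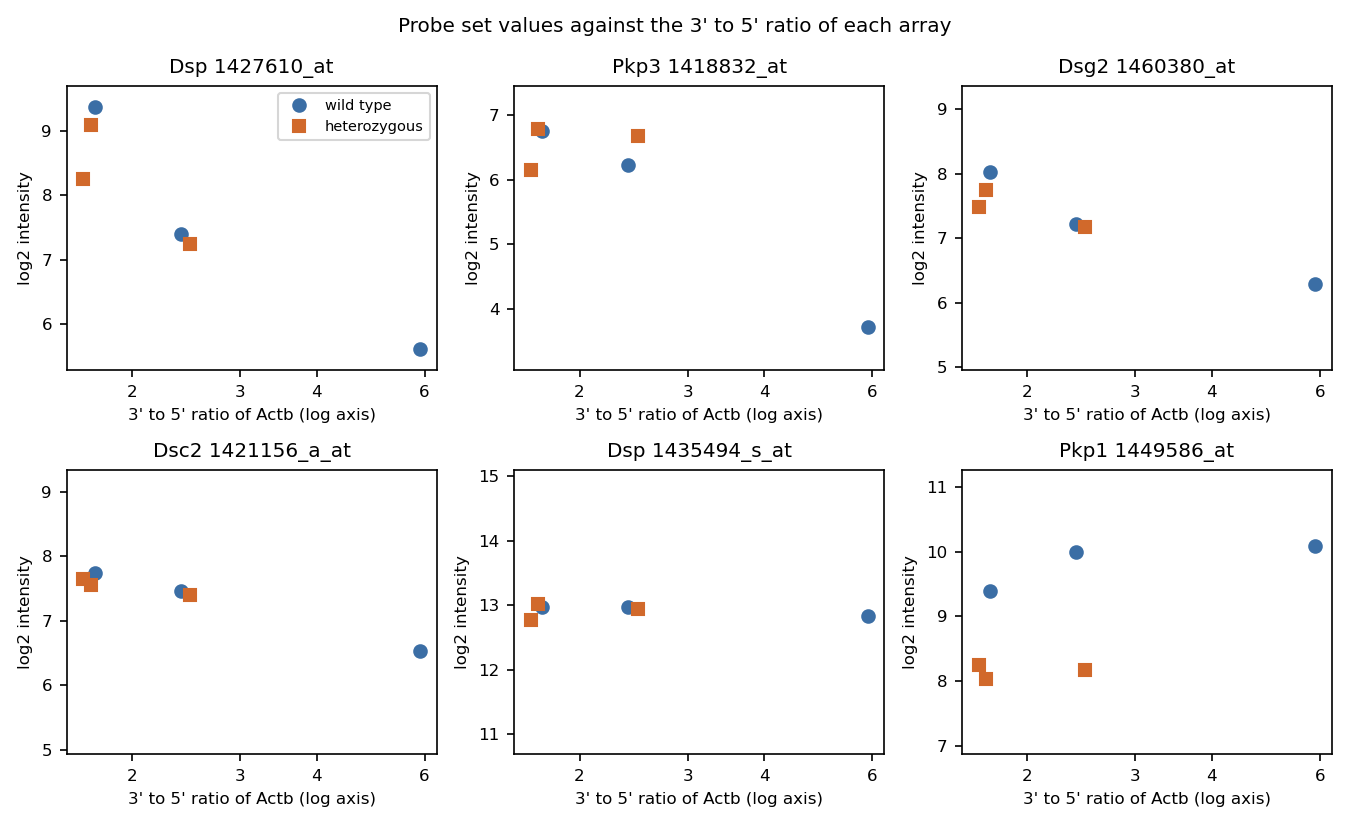
Each panel sets the log2 intensity of 1 probe set (vertical axis, the same span of 4.4 log2 units in every panel) against the 3' to 5' ratio of the Actb control of the array (horizontal log axis), with circles for wild type and squares for heterozygous. The lowest point of Dsp 1427610_at, Dsc2 1421156_a_at, Dsg2 1460380_at and Pkp3 1418832_at is the wild-type array of ratio 5.90, Dsp 1435494_s_at is nearly level, and the genotypes of Pkp1 are apart on both sides of the ratio.

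Dsg2, the desmoglein of simple epithelia, was covered by 6 probe sets. The brightest, 1439476_at, read 11.50, 11.59 and 11.45 in the wild type and 11.44, 11.16 and 11.21 in heterozygous oviducts. The genotypes did not overlap, although heterozygous replicate 1 and wild-type replicate 3 were nearly level, and the log2 change was -0.24 with a 95% interval from -0.60 to 0.12. Dsg2 1449741_at read 8.82, 8.95 and 9.09 in the wild type and 8.69, 8.36 and 8.60 in heterozygous oviducts. Again all heterozygous arrays were lower, with a log2 change of -0.40 (95% interval from -0.80 to -0.0072, limma adjusted p = 0.933). At 1449740_s_at Dsg2 was at -0.35, and here heterozygous replicate 1, at 11.05, lay above wild-type replicate 1, at 10.97.

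These 3 Dsg2 probe sets stayed below 0 in every alternative that kept them, between -0.50 and -0.19. The dim 1426153_a_at, at -0.86 with a 95% interval from -1.97 to 0.24, also stayed below 0, between -1.28 and -0.38. Dsg2 1425619_s_at and 1460380_at were above 0, at 0.19 and 0.29, and both were lowest in wild-type replicate 3. Without wild-type replicate 3 this pair stood at -0.12 and -0.16. All 6 Dsg2 probe sets read the same RNA samples, so the shared sign of 4 of them is not independent evidence.

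Desmocollin 2 (Dsc2), the partner cadherin of simple epithelia, read 9.09, 8.58 and 8.43 in the wild type and 8.63, 8.62 and 8.77 in heterozygous oviducts at 1426911_at. The heterozygous arrays lay inside the wild-type range, and the log2 change of Dsc2 was -0.03 with a 95% interval from -0.55 to 0.49. The log2 change at Dsc2 1421156_a_at was 0.29, and it was -0.07 without wild-type replicate 3. Dsc3, the desmocollin of stratified epithelia, was dim at both probe sets, with means below the array-wide median (7.31, over all probe sets) in both genotypes. At 1427637_a_at it read 5.87, 5.84 and 5.87 in the wild type and 6.44, 6.03 and 5.82 in heterozygous oviducts, with heterozygous replicate 3 below the wild type. Its log2 change there was 0.24, and it was -0.29 at 1434534_at, where the values ran from 2.24 to 5.003 within the wild type. No detection calls were used, so whether Dsc3 lay above background is unknown.

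Plakoglobin (Jup), the armadillo protein shared by desmosomes and adherens junctions, was measured by 1 probe set (1426873_s_at), which the filter on cross-hybridizing probe sets removed. Jup read 10.51, 10.52 and 10.58 in the wild type and 10.38, 10.31 and 10.08 in heterozygous oviducts. All heterozygous arrays were lower, and heterozygous replicate 3 was the lowest. The log2 change of Jup was -0.28 with a standard error of 0.15 and a 95% interval from -0.64 to 0.08 (limma adjusted p = 0.933, exact permutation p = 0.1). Leaving out 1 array at a time gave -0.34 to -0.19 for Jup. Perp, a membrane protein of desmosomes and a target of p53 family factors, read 10.07, 10.32 and 10.27 in the wild type and 10.48, 10.31 and 10.35 in heterozygous oviducts. The genotypes overlapped at Perp, and its log2 change was 0.16 with a 95% interval from -0.20 to 0.51.

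Among the 24 probe sets, 4 from 3 genes (Pkp1, Jup and Dsg2) had all heterozygous arrays below all wild-type arrays and 0 the reverse, where 5.87% and 4.67% of all probe sets did so. By 1 probe set per gene, the brightest over all arrays, 3 of 10 members were lower without overlap, against 6.77% of genes. Of the 10 genes 7 were lower and 3 higher, and the median log2 change was -0.03, as over all genes (-0.03, with 55.0% lower). The 10 genes share samples and were chosen with earlier results known, so these counts are descriptions.

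Genes that work beside the members were taken from lists of their neighbours in the junction. Of 14 other desmosome and plakin genes 11 were measured, 3 higher and 8 lower, with a median of -0.07; 0 passed in limma over all genes, where 0.0165% passed, and 1 had an unadjusted p under 0.05, as did 6.44% of all genes. Cdsn, a corneodesmosome protein, was at -0.43 and Evpl, the plakin envoplakin, at -0.31, each with overlap between the genotypes. Dsg1b, at 1.61, was at the bottom of the scale, between 1.03 and 3.85 in all arrays. Ppl, the plakin periplakin, was at -0.13 with overlap.

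Adherens junction genes numbered 17, of which 8 were higher and 9 lower, with a median of -0.02 whose sign depended on the setting, 0 past the threshold in limma and 1 with an unadjusted p under 0.05, against 6.44% of all genes. Cdh2, N-cadherin, read 8.48, 8.86 and 8.40 in the wild type and 7.85, 7.76 and 7.30 in heterozygous oviducts. All heterozygous arrays of Cdh2 were lower, with a log2 change of -0.94 (standard error 0.21, limma adjusted p = 0.503 over genes). Cdh3, P-cadherin, was at 1.46 in the other direction with a standard error of 0.63 (limma adjusted p = 0.798); it read 5.09, 5.53 and 5.63 in the wild type and 7.12, 8.02 and 5.498 in heterozygous oviducts, so that heterozygous replicate 3 lay inside the wild-type range. Ctnna3, an alpha-catenin, was at -0.49 with overlap. Ctnnb1, beta-catenin, was at 0.08 with overlap, between 13.38 and 13.68 in all arrays. With the mean of all probe sets of a gene, Cdh2 was at -0.75, Cdh3 at 0.69, Ctnna3 at -0.14 and Ctnnb1 at 0.58. The 6 keratins of simple epithelia had a median of 0.01, whose sign depended on the setting, with 4 higher, 2 lower, 0 past the threshold in limma and 1 at an unadjusted p under 0.05. Krt8 and Krt18, the filament partners of desmoplakin, were at -0.03 and 0.01, small values whose sign depended on the setting, and Krt23 at 0.40 without overlap (limma adjusted p = 0.696). Krt20 was at -1.59 and Krt19 at 0.06, both with overlap.

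Because Pkp1 is best known from stratified epithelia, markers of these were set beside it. Of 20 measured genes 16 were below the array-wide median in both genotypes, 7 were higher and 13 lower, and the median log2 change was -0.21, against -0.03 over all genes. That median turned to 0.05 with the mean of all probe sets of a gene, and it was -0.04 without dim probe sets and -0.11 without wild-type replicate 3. None passed in limma and 3 of the 20 had an unadjusted p under 0.05, as did 6.44% of all genes. These 3 were the keratins Krt15, at -0.76, and Krt13, at -0.36 but 0.37 without cross-hybridizing probe sets, and Krtdap, at 2.07, and all 3 were below the array-wide median in both genotypes. The genotypes did not overlap in any of them, with heterozygous arrays lower for Krt15 and Krt13 and higher for Krtdap (limma adjusted p = 0.696, 0.698 and 0.731). Without overlap, 1232 of all 18193 genes were lower and 909 higher. Krt5, Krt14 and Trp63, the defining markers of basal cells, were at 0.15, -0.11 and -0.32, each with overlap, and with the mean of their probe sets Krt14 and Trp63 were above 0, at 0.32 and 0.25. Krt14 was low throughout, between 6.08 and 6.36. The summed linear intensity of the list ran from 1732 to 2224 in the wild-type and from 1604 to 2018 in the heterozygous arrays, so the genotypes overlapped. The part of stratified epithelium in the Pkp1 difference was not tested.

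General epithelial genes were split, with 6 of 14 higher, a median of -0.02 whose sign depended on the setting, and a summed intensity of 43172 to 50378 in wild-type and 45913 to 51495 in heterozygous arrays. Within that list Cldn4, a tight junction claudin, was at -0.64 and Prom1, an apical membrane protein, at 0.41, both without overlap (limma adjusted p = 0.745 and 0.698). Of 11 ciliated cell genes 9 were below 0, with a median of -0.17. Leaving out 1 array gave -0.28 to -0.02, the latter without heterozygous replicate 2. Summed ciliated intensity did not overlap, at 31402 to 33022 in wild-type and 25623 to 30541 in heterozygous arrays. Of 10 secretory cell genes 6 were above 0, with a median of 0.05 that was -0.01 with the deposited scaling. Log2 changes were above 0 for smooth muscle genes in 10 of 12 (median 0.45), endothelial genes in 11 of 12 (0.31), stromal fibroblast genes in 10 of 12 (0.17), mesothelial genes in 7 of 9 (0.16), adipocyte genes in 7 of 9 (0.57) and leukocyte genes in 7 of 10 (0.11). None of these list members passed in limma. The mesothelial list held Wt1, the targeted gene, at -0.57, and Krt19, which is also in the simple keratin list. Single arrays moved these medians: leaving out 1 array gave 0.24 to 0.70 for smooth muscle, 0.21 to 0.35 for endothelium, 0.07 to 0.28 for stromal fibroblasts, 0.0032 to 0.28 for mesothelium, 0.13 to 1.20 for adipocytes and 0.03 to 0.22 for leukocytes. The lowest value came without wild-type replicate 1 for mesothelium and leukocytes, without wild-type replicate 2 for adipocytes, and without heterozygous replicate 2 for smooth muscle and stromal fibroblasts. Summed smooth muscle intensity was 32037 to 35796 in wild-type and 36201 to 48506 in heterozygous arrays, and endothelial intensity 5207 to 5928 and 6161 to 7282, with no overlap in either. The same held for stromal fibroblast intensity, at 49246 to 54119 and 54157 to 65236, and leukocyte intensity, at 8571 to 11151 and 12622 to 16903, whereas the mesothelial and adipocyte sums overlapped. A sum is set mostly by its bright genes, such as Jchain, at 11.43 to 11.91 in wild-type and 12.47 to 12.71 in heterozygous arrays. Only 2 of the 10 leukocyte genes, Jchain and S100a8, were higher without overlap, as were 909 of all 18193 genes. The summed intensities have no test of their own, and their part in the Pkp1, Jup and Dsg2 values was not tested.

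**Figure D5:**
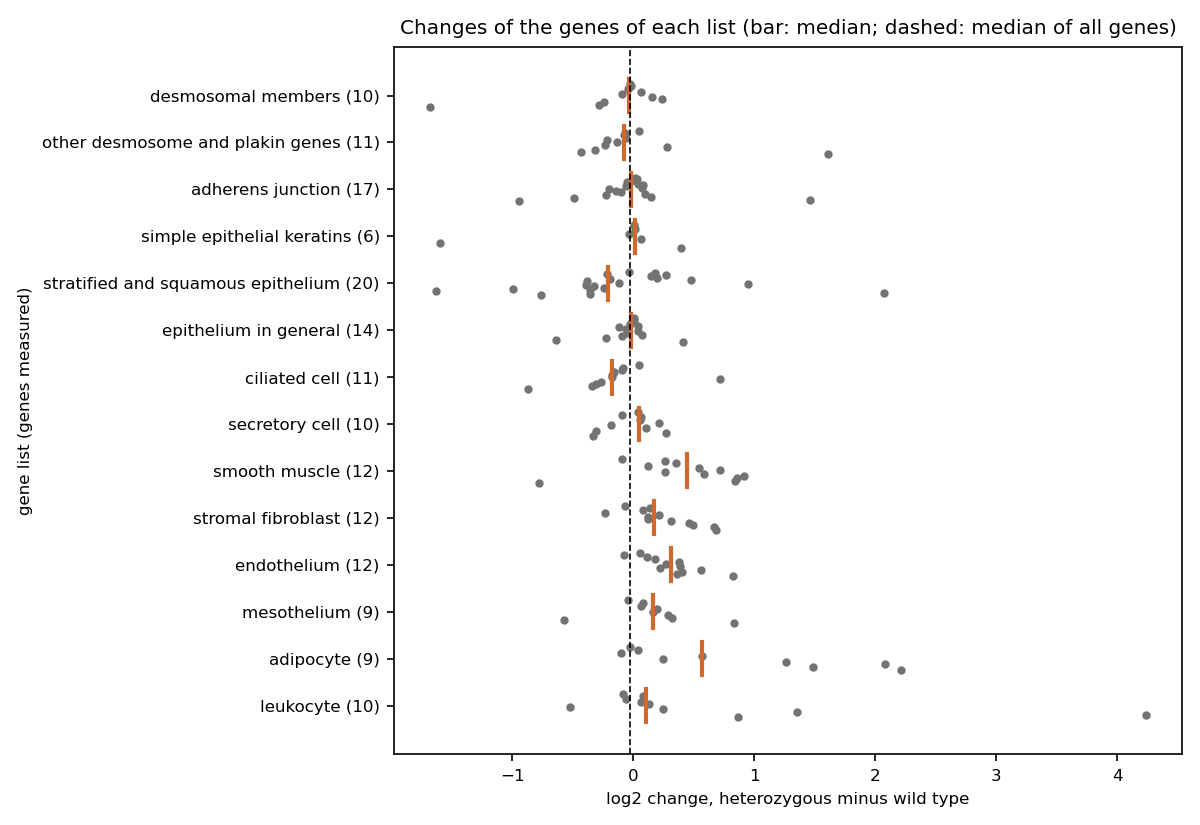
Each point is 1 gene, at the log2 change of its brightest probe set, heterozygous minus wild type (horizontal axis), in the gene list named at the left with the number of genes measured; vertical bars are list medians and the dashed line is the median of all 18193 genes, -0.03. Pkp1, at -1.68, is apart from the other 9 desmosomal members, which lie near 0, while most points of the smooth muscle and endothelium lists are above 0.

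Genes whose values followed Pkp1 most closely across the 6 arrays were sought among the 11710 other genes whose mean exceeded the array-wide median. The highest Pearson correlations, given as a description over 6 arrays of which 3 differ from 3, were 0.994 for Klhl15, 0.990 for Phf23, 0.986 for Ncmap and for Gbp2b, and 0.984 for Kcnk5. Their own log2 changes were smaller than that of Pkp1, at -0.40 for Klhl15, -0.17 for Phf23, -0.94 for Ncmap, -0.70 for Gbp2b and -0.53 for Kcnk5. Correlations above 0.9 were reached by 207 of the 11710 genes. Among the desmosomal members, by the brightest probe set of each, Jup came nearest to Pkp1, at 0.853, followed by Dsg2 at 0.760, both below that mark. The remaining 7 lay between -0.508 and 0.425.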

How the data were processed

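The file the authors deposited holds a linear intensity for each probe set in each array, with a mean of 500.002 in each array after removing 2% of values at each end, as the values show. The sources used here do not name the program that summarised the probes. After removal of 64 control probe sets, intensities under 1 were set to 1, log2 transformed and quantile normalized, since the array medians spanned 0.147 log2 units. Of the 45037 probe sets, 34945 had 1 symbol in the platform annotation, 932 several and 9160 were not listed. The log2 changes come from lmFit and eBayes of limma 3.58.1 in R 4.3.3; p-values are two-sided and adjusted by Benjamini-Hochberg over all probe sets, and again over 18193 genes by the brightest probe set. Exact permutation tests used all 20 assignments. Intervals are 95% and come from limma. The scripts were tested on simulated data.

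Genes named were all 10 members, Wt1, defining markers and the 5 genes most correlated with Pkp1. Up to 3 genes of smallest p per list were named too (none for ciliated, secretory and non-epithelial cells). Ppl, Ctnnb1, Krt8, Krt18, Krt5, Krt14, Trp63 and Ovgp1 were added for their roles. Jchain and S100a8 were added as the leukocyte genes without overlap. Members and lists were chosen with earlier results of these data known. Replicate numbers gave no sign of pairing the samples: same-numbered arrays had correlations of -0.164, -0.023 and -0.0924 in their deviations from the group means. The labels do not say whether samples were paired, and so few arrays cannot exclude it. Alternatives tried were leaving the scaling as deposited, log2 of the intensity plus 16, filters on dim or cross-hybridizing probe sets, trend and robust, array weights, the replicate block, the Actb ratio as a covariate, leaving out each array and, for genes, the mean of all probe sets. The classes of Actb ratio were added after the data were seen.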

Additional observations from a re-analysis of the deposited data

How the results depend on the processing

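Pkp1, Jup, Perp, Wt1 and the Dsg2 probe sets 1439476_at, 1449740_s_at and 1449741_at kept their direction under every alternative run. So did Pkp2 1420259_at and 1449799_s_at, Pkp3 1418832_at, Pkp4 1438677_at, Dsg2 1426153_a_at and Dsc3 1427637_a_at. Under every alternative run 0 of the desmosomal probe sets tested passed. All 24 were tested except without dim probe sets, where 20 were left, and without cross-hybridizing probe sets, where 19 were left. With limma, 3 probe sets and 3 genes passed over the whole array, none of them desmosomal. The probe set count was 14 with array weights, 1 with log2 of the intensity plus 16, 0 with the Actb ratio as a covariate and 0 with its classes as a block (added after the data were seen), and 0 to 1 when 1 array was left out. The gene count was 7 with array weights, 1 with trend and robust, 1 without dim probe sets, and 0 without cross-hybridizing probe sets, with the Actb ratio as a covariate, with its classes as a block or without any 1 array. With the replicate block both counts were 0, with 2024 probe sets and 976 genes at an unadjusted p under 0.05. The labels do not say whether shared numbers pair the samples, and the correlations gave no sign of it.

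Directions of named probe sets and genes turned as follows, with causes not tested. With the Actb ratio as a covariate the log2 change was -0.10 for Dsc2 1421156_a_at, 0.38 for Dsc3 1434534_at, -0.12 for Dsg2 1425619_s_at, -0.26 for Dsg2 1460380_at, -0.47 for Dsp 1427610_at, -0.15 for Pkp2 1429183_at, 0.036 for Pkp3 1418831_at and -0.00041 for Pkp4 1452209_at. With array weights it was 0.039 for Dsc2 1426911_at, 0.46 for Dsc3 1434534_at, 0.043 for Dsp 1435493_at and -0.0045 for Pkp2 1429183_at. With the ratio classes as a block it was 0.024 for Pkp3 1418831_at. Krt8 was at 0.15 with the ratio as a covariate and 0.074 with its classes, and Krt18 at -0.027 with the covariate, -0.052 with array weights and -0.048 with the deposited scaling, where Ovgp1 was at -0.025. The mean of all its probe sets gave 0.24 for Kcnk5, 0.32 for Krt14 and 0.25 for Trp63, and Krt13 was at 0.37 without cross-hybridizing probe sets. Leaving out 1 array gave -0.067 to 0.53 for Dsc2 1421156_a_at, -0.16 to 0.17 for Dsc2 1426911_at, -0.93 to 0.46 for Dsc3 1434534_at, -0.12 to 0.37 for Dsg2 1425619_s_at, -0.16 to 0.70 for Dsg2 1460380_at, -0.18 to 1.68 for Dsp 1427610_at and -0.074 to 0.046 for Dsp 1435494_s_at. It gave -0.15 to 0.22 for Pkp2 1429183_at, -0.11 to 0.070 for Pkp2 1460511_at, -0.13 to 0.0047 for Pkp3 1418831_at and -0.016 to 0.16 for Pkp4 1452209_at. For keratins the range was -0.052 to 0.055 for Krt18, -0.20 to 0.099 for Krt8 and -0.036 to 0.37 for Krt5.

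List medians turned too. With the mean of all probe sets of a gene the median was 0.15 for adherens junction genes and 0.05 for the stratified epithelium list, and with the deposited scaling -0.01 for secretory cells and -0.01 for simple keratins. It was -0.06 for simple keratins with array weights, 0.02 for adherens junction genes without dim probe sets, and for general epithelium 0.05 with the ratio as a covariate and 0.08 with its classes. Leaving out 1 array gave -0.06 to 0.02 for adherens junction genes, -0.11 to 0.07 for general epithelium and -0.07 to 0.08 for simple keratins.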
